A study of Schizosaccharomyces pombe with 12 samples.

Results

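Under methyl methanesulfonate (MMS), an agent that methylates DNA and hinders its replication, 75 genes of fission yeast, *Schizosaccharomyces pombe*, took a lower share of the mRNA in diploid and in haploid cells alike. They were chosen by their measured values. CPM, the counts of a gene scaled to a common library total, were computed per library over the *S. pombe* genes, without spike-ins. A gene was kept if its mean CPM over 12 libraries was 5 or more, if the mean CPM under MMS was at most 0.8 of the untreated (NT) mean in each ploidy, and if the highest MMS library lay below the lowest NT library in each ploidy. Of 4857 genes in the table, 4450 had a mean CPM of 5 or more and 75 met all criteria. The 75 genes are called members below, and their MMS values are a description of what chose them.

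The groups were diploid MMS, diploid NT, haploid MMS and haploid NT, with 3 libraries each. Diploids were made by protoplast fusion and carried the h- *smt-0* mating type in both copies, with *ade6-M210/ade6-M216*. Haploids were h- *smt-0* with *ade6-M210*. All strains also carried *ura4-D18* and *his3D-1*, which are deletions, and *leu1-32*, homozygous in diploids. Cells grew in rich YES medium at 32 °C, each culture was divided between NT and 0.0075% MMS for 4 h, and polyadenylated RNA was sequenced. Each ploidy is represented by a single strain, so strain and ploidy cannot be told apart. Total counts ran from 16288362 to 26493886 per library. The deleted *ura4+* had 0 counts in each library and *his3+* had 1 to 10. Of the markers of the M mating type, which the methods give as h-, *mam2+* had 3581 to 5743 counts per library and the mating-type gene *mat1-Mc* had 6 to 31, while the P-cell markers *sxa1+* (23261 to 40257) and *map2+* (819 to 7800) were also detected. ERCC spike-ins, synthetic RNAs added during preparation of the samples, took 1.33% to 1.68% of the counts in diploid MMS and 1.37% to 1.66% in diploid NT, against 3.78% to 4.24% in haploid MMS and 1.9% to 3.71% in haploid NT. Scaled by spike-ins, the median of all genes tested shifted by 0.02 on the log2 scale between MMS and NT in diploids and by -0.61 in haploids. All 75 members were below 0 on that scale in both ploidies, with a median of -0.49 in diploids and -1.14 in haploids. This scaling shifts all genes of a library alike and the members were chosen as lowered, so this is a description and no test. All other levels below are shares of the mRNA.

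Fission yeast divides by building a septum across the middle of the cell and then dissolving part of it. The glucanases that open the septum are made at the end of mitosis, under control of a cascade of transcription factors that includes the forkhead factor Sep1. Nutrient uptake is set by permeases whose genes respond to phosphate, zinc, copper or nitrogen supply, and a large set of genes for mating and meiosis is kept low in growing cells. The members were grouped by hand into roles once they were known, mostly from the annotated products. Where a product names no role, as for *adg1+*, *adg2+*, *meu31+* and *mug115+*, gene names or lists were followed. *mug24+* and *mug161+*, whose products are annotated for RNA, were placed by name under meiosis. They fell into cell separation and cell wall (7 genes), transporters (13), meiosis and mating (8), small-molecule and sugar metabolism (12), GPI anchors (2), DNA and chromatin (5), transcription and RNA (9), mitochondrial gene expression (6), signalling and cell cycle (5), and genes with no annotated role (8).

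The ratio of mean CPM, MMS over NT, had a median over members of 0.72 in diploids and 0.65 in haploids. Over the 4450 genes the medians were 1.03 in diploids and 0.953 in haploids. Members ran from 0.253 to 0.798 in diploids and from 0.228 to 0.787 in haploids. A ratio of 0.7 or less was found for 30 members in diploids, 58 in haploids and 29 in both. Summed, the members took 1.1% to 1.16% of the counts in diploid MMS libraries, against 1.55% to 1.67% in diploid NT. In haploids the sum was 0.966% to 1.11% in MMS libraries, against 1.49% to 1.61% in NT. The criteria of diploids alone were met by 148 genes and those of haploids alone by 433, so the members made up 50.7% of the diploid and 17.3% of the haploid genes.

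**Figure D1:**
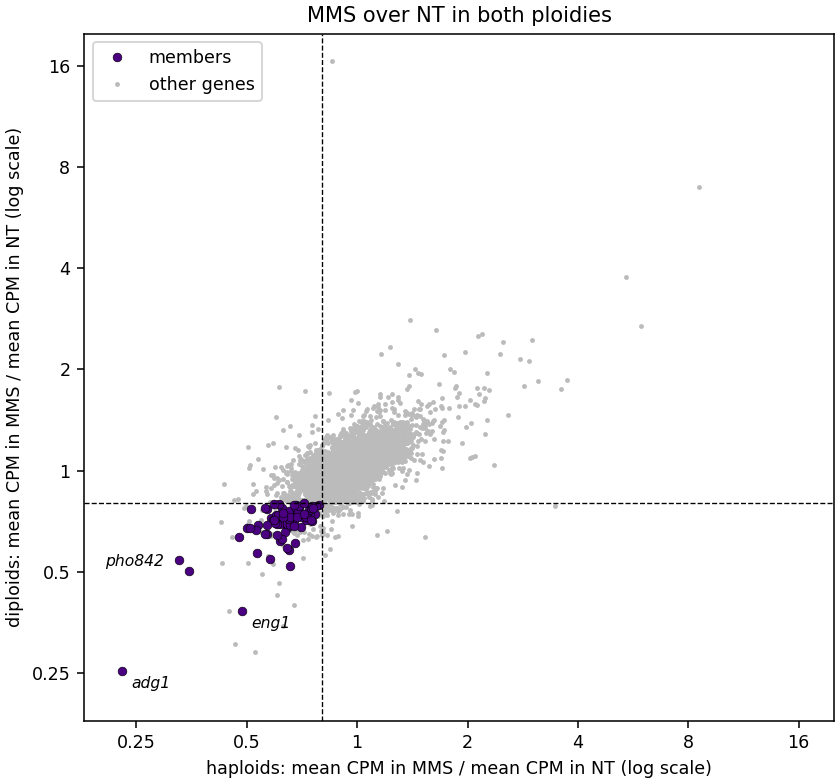
Ratio of mean CPM, MMS over NT, in diploids (vertical axis) against haploids (horizontal axis), both on log scales, for 4450 genes. Each point is a gene, dashed lines mark the limit of 0.8, and members are the dark points. *adg1+* lies lowest in both ploidies, at 0.253 in diploids and 0.228 in haploids.

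Within cultures, the MMS portion over the NT portion had a median over members of 0.691, 0.705 and 0.735 in diploid cultures 1 to 3, where the median of all genes was 1, 1 and 1.06. In haploid cultures 1 to 3 the members' median was 0.639, 0.645 and 0.641, where the median of all genes was 0.956, 0.971 and 0.951. Diploid culture 3 had the highest median of the diploid cultures for members and for all genes alike. It had 50 members at a ratio of 0.8 or less, against 69 in diploid culture 1 and 58 in diploid culture 2. Without the MMS library of that culture the rule would have kept 228 genes, 65 of them members.

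**Figure D2:**
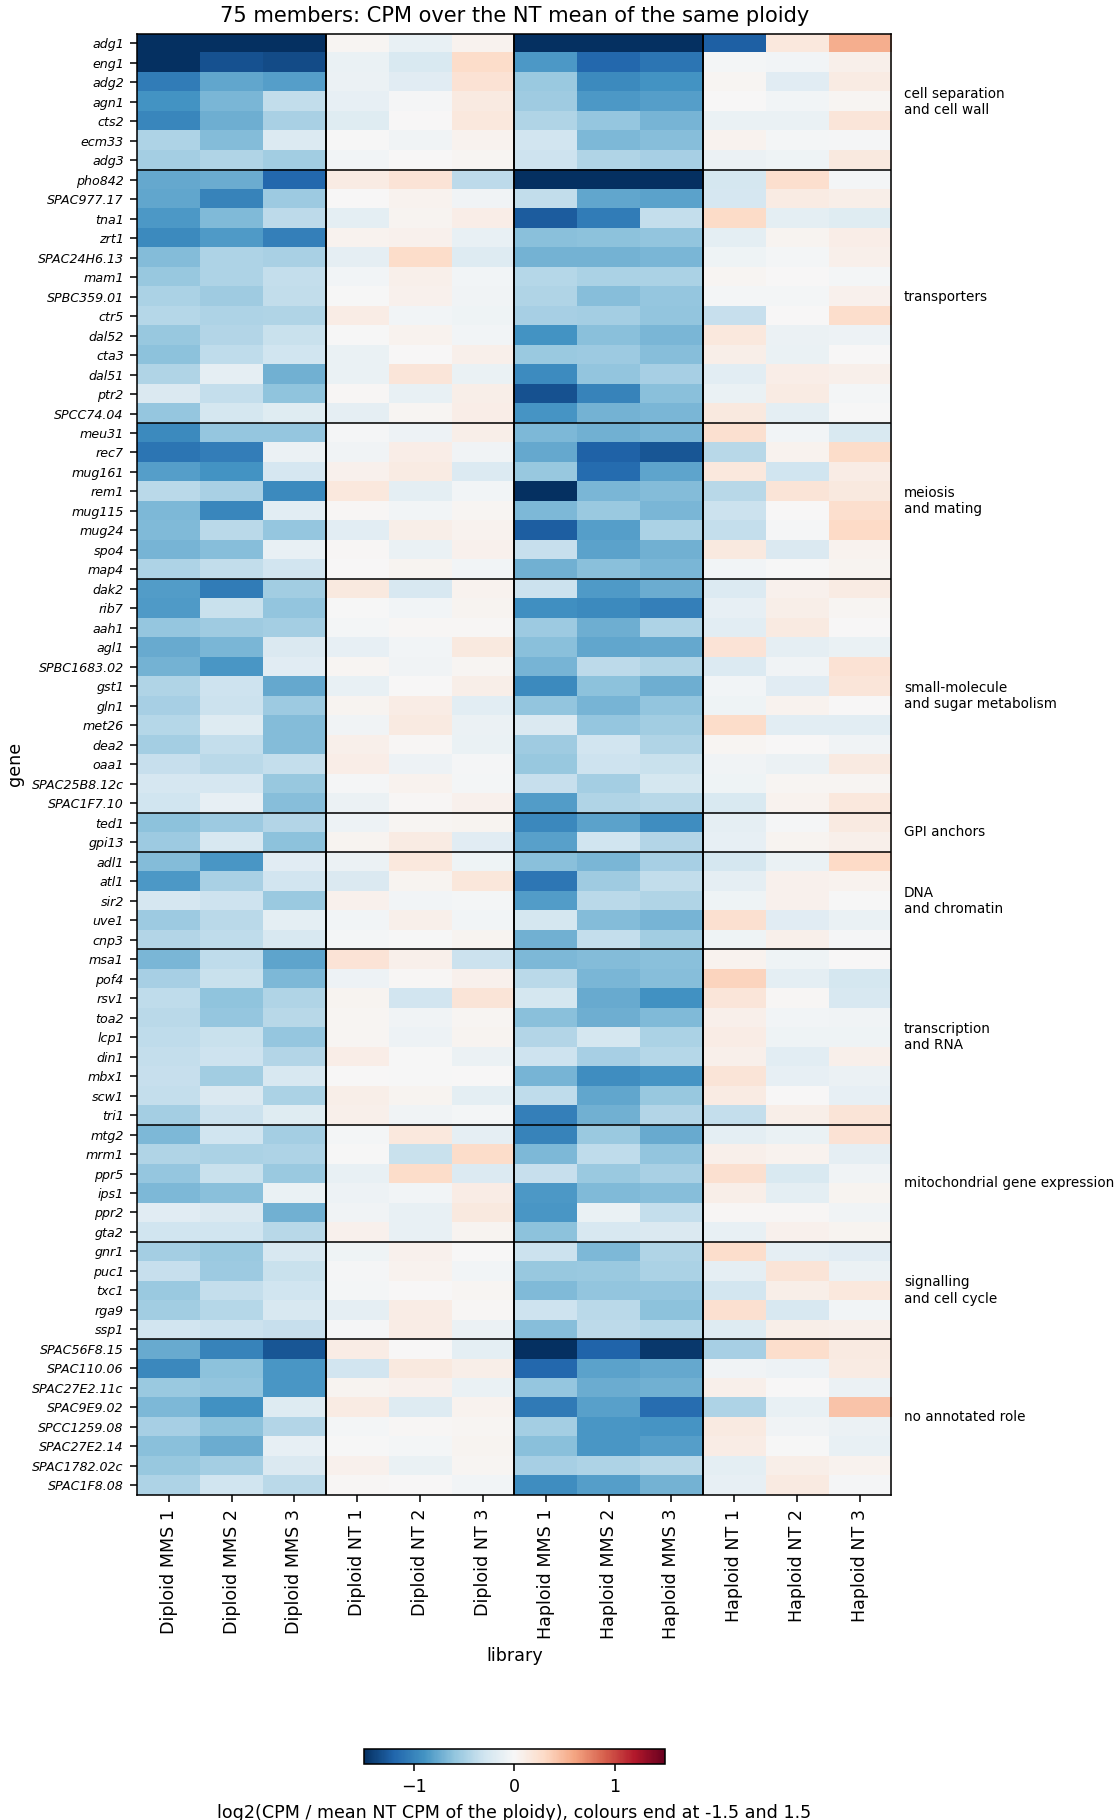
CPM of the 75 members (rows, grouped by role) in 12 libraries (columns), as the log2 of CPM over the mean NT CPM of the same ploidy. Blue is below and red above the NT mean, and the colours end at -1.5 and 1.5. The MMS columns are blue in both ploidies, palest for several members in diploid MMS 3.

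Of the 75 members, all of which passed the filter on low counts, 12 were called lower under MMS in diploids and 29 in haploids by edgeR's quasi-likelihood test (adjusted p under 0.05 and log2 fold change, log2FC, under -0.58). Over all 4584 genes tested, 0.327% were called lower in diploids and 1.03% in haploids. Called higher were 0.589% in diploids and 1.61% in haploids, with 0 members in either. Scaled by spike-ins, 1 member was called lower in diploids and 67 in haploids. On that scale the median log2FC of all genes tested was 0.02 in diploids and -0.61 in haploids. The haploid median is itself past -0.58, so a shift of all genes enters the haploid count, and the share of all genes called is not given here. With the culture as a block, 19 members were called in diploids (1.27% of genes tested) and 35 in haploids (2.14%). The rule used the same contrasts, so these counts describe how many members also clear the fold and the test, and no more. Leaving out single libraries moved the count between 2 and 20 in diploids and between 9 and 34 in haploids. The shares of all genes called in these fits are not given here, so the counts do not set members against other genes. Diploid counts were 2 without diploid MMS 1 or diploid NT 1, 3 without diploid NT 2 or diploid NT 3, and 20 without diploid MMS 3. They were also 6 without haploid MMS 3 or haploid NT 2 and 7 without haploid NT 3, which enter through the shared estimate of spread. Haploid counts were 9 without haploid MMS 2, 12 without haploid NT 3, 15 without haploid MMS 3 and 19 without haploid NT 2.

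Cell separation held the lowest member in each ploidy, *adg1+*. Of 18 genes listed for this process, 5 were members (*adg1+*, *eng1+*, *adg2+*, *agn1+* and *adg3+*), and 4 were called lower and 0 higher in each ploidy. The median log2FC of the 18 was -0.12 in diploids and -0.05 in haploids, and that of the 4450 genes was 0.01 in diploids and -0.01 in haploids. Over the 18 lists that held a member, list medians ran from -0.32 to 0.3 in diploids and from -0.61 to 0.4 in haploids. In bulk RNA, fewer cells in the phase that expresses these genes and less RNA per cell cannot be told apart.

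*adg1+* (SPAPJ760.03c, chromosome I 5265435 to 5266589, a single exon) had the lowest ratio of the members in both ploidies. It had 22.6, 40.3 and 29.5 CPM in diploid MMS libraries, against 124, 113 and 127 CPM in diploid NT. Haploid MMS libraries had 11.9, 18.7 and 21.8 CPM, against 32.9, 85.8 and 112 CPM in haploid NT. The diploid groups lay far apart, while haploid NT 1 was low and lay near the highest haploid MMS library. The ratio was 0.253 in diploids and 0.228 in haploids.

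*eng1+* (SPAC821.09, chromosome I 998686 to 1002361) encodes the endo-1,3-beta-glucanase that digests the primary septum. Its CPM was 30.8, 35.5 and 34.5 in diploid MMS, against 82, 74.9 and 106 in diploid NT. In haploids it was 27.4, 22 and 23.3 under MMS, against 48.7, 48.4 and 52.7 in NT. Libraries of a treatment lay higher in diploids than in haploids, without overlap, by a wider margin in NT than under MMS.

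*agn1+* (SPAC14C4.09, chromosome I 5243953 to 5245966) encodes the endo-1,3-alpha-glucanase that opens the wall around the septum. It had 84.3, 97.8 and 122 CPM in diploid MMS, against 144, 155 and 172 CPM in diploid NT, and 105, 83.9 and 86 CPM in haploid MMS, against 152, 148 and 155 CPM in haploid NT. The ratios were 0.645 in diploids and 0.605 in haploids, and 11.4% of its exon bases are shared with other genes of the table.

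*adg2+* (SPAC19G12.16c) averaged 63 ± 6.02 CPM in diploid MMS and 116 ± 17 CPM in diploid NT, and 48.7 ± 7.46 CPM in haploid MMS and 84.2 ± 8.68 CPM in haploid NT (SD, n = 3 each). *adg3+* (SPCC18.01c), annotated as a beta-glucosidase, averaged 181 ± 4.71 CPM in diploid MMS and 255 ± 6.22 CPM in diploid NT, and 185 ± 12.3 CPM in haploid MMS and 247 ± 23.3 CPM in haploid NT (SD, n = 3 each). The order of the ratios in this group, from *adg1+* through *eng1+*, *adg2+* and *agn1+* to *adg3+*, was the same in both ploidies. *adg3+* was the nearest to the limit, with 0.711 in diploids and 0.748 in haploids.

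Other genes of the list were not members, and some of them, picked without a rule, are given here. *sep1+* had a ratio of 0.992 in diploids and 0.919 in haploids. *mid2+*, which organizes septins (0.848 in diploids, 0.896 in haploids), and *cfh4+*, a chitin synthase regulator (0.862 in diploids, 0.827 in haploids), had intermediate ratios and did not pass the test in either ploidy. The septins *spn1+* to *spn4+* had ratios from 1.07 to 1.23 in diploids and from 0.933 to 1.23 in haploids.

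**Figure D3:**
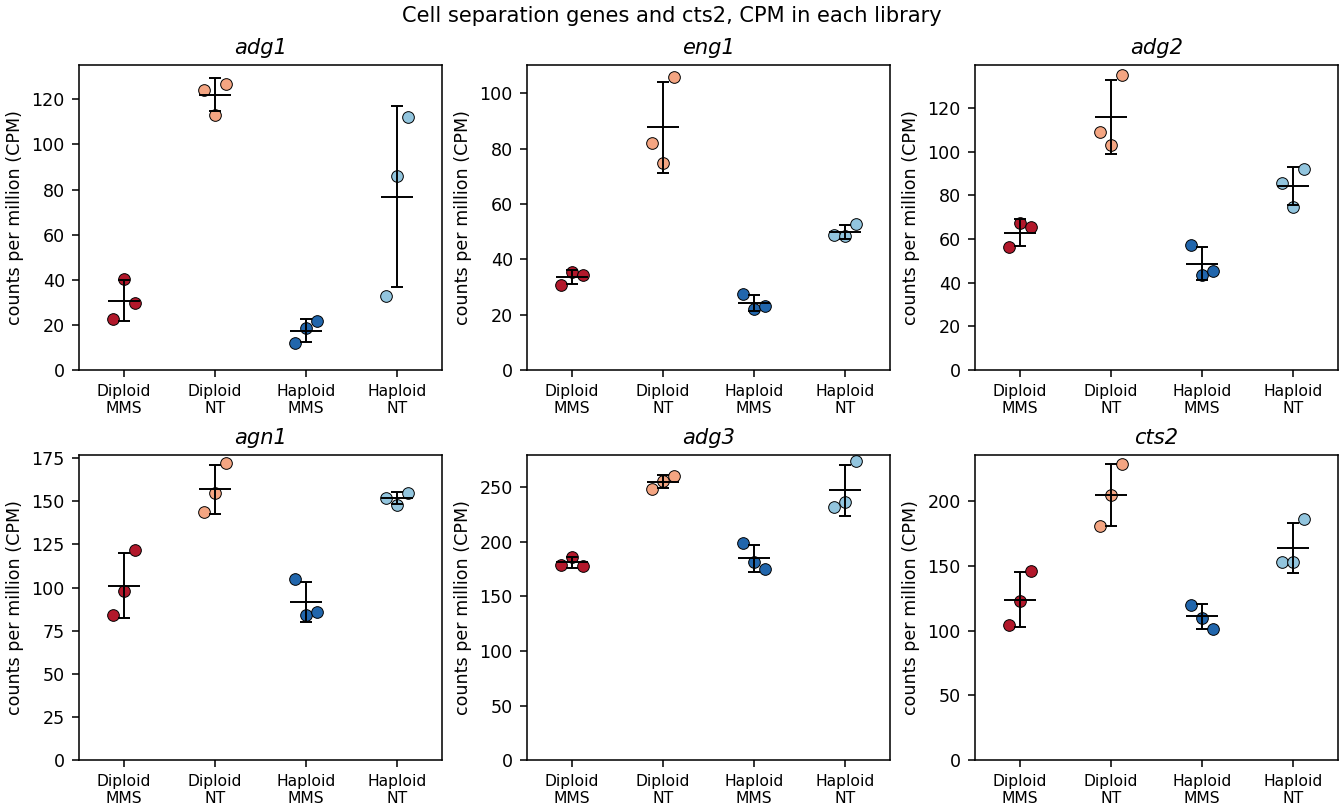
CPM of *adg1+*, *eng1+*, *adg2+*, *agn1+*, *adg3+* and *cts2+* in each library. Circles are libraries, bars the mean and SD (n = 3), from left to right diploid MMS, diploid NT, haploid MMS and haploid NT, with the CPM axis from 0. The MMS circles lie below the NT circles of the same ploidy in every panel, by the rule, and haploid NT 1 of *adg1+* (32.9 CPM) is the low NT circle.

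The rule used no sequence, so the promoters were searched for short motifs, in the 500 bases before each gene start as RefSeq annotates it (assembly ASM294v3). Of 9 motifs, searched on both strands, TGACGT, a part of the cAMP-response element, was in 16% of 75 members and 7.84% of 4450 genes. The forkhead core GTAAACA was in 29.3% of members and 24.4% of genes, and 2 or more copies were in 9.33% of members and 3.91% of genes. GATA cores (AGATAA) were in 44% of members and 38.8% of genes, CCAAT in 62.7% and 59.6% in the same order, TATAAA in 69.3% and 69%, and TTGCTG in 24% and 26.6%. The MBF core ACGCGT was in 5.33% of members and 3.89% of genes, CAGTCAC in 6.67% and 5.87%, and TTCTTTGTT in 4% and 2.63%. A match of letters is a description of the sequence and not a site of binding.

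Further members act at the cell wall. *cts2+* (SPAPB1E7.04c), annotated as a chitinase, had 104, 123 and 146 CPM in diploid MMS, against 181, 205 and 229 CPM in diploid NT, and 120, 110 and 101 CPM in haploid MMS, against 153, 153 and 186 CPM in haploid NT. *ecm33+*, a GPI-anchored wall protein, is among the most abundant members per length, at 1212 CPM per kilobase. It averaged 1945 ± 303 CPM in diploid MMS and 2613 ± 89.2 CPM in diploid NT, and 2018 ± 314 CPM in haploid MMS and 2902 ± 88.8 CPM in haploid NT (SD, n = 3 each). It was the single member among 34 tested genes of wall synthesis and remodelling, of which 1 was called lower in each ploidy and 0 higher, in neither case *ecm33+* itself. The GPI-anchor genes *ted1+*, whose yeast relative in *Saccharomyces cerevisiae* trims the anchor, and *gpi13+*, which adds ethanolamine phosphate, were 2 of 31 tested genes on their list (0 called lower in diploids, 1 in haploids, 0 higher). The ratio was 0.69 in diploids and 0.535 in haploids for *ted1+*, and 0.727 in diploids and 0.705 in haploids for *gpi13+*. *ted1+* lies next to *adg2+* on the same strand, 353 bases apart.

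Among the 13 transporters the ratio ran from 0.519 to 0.794 in diploids and from 0.326 to 0.727 in haploids. *pho842+* (SPAC23D3.12, chromosome I 4362493 to 4365125), an inorganic phosphate transporter, had 175, 177 and 131 CPM in diploid MMS, against 323, 341 and 226 CPM in diploid NT. Its CPM was 117, 118 and 132 in haploid MMS, against 313, 447 and 367 in haploid NT. The ratio was 0.542 in diploids and 0.326 in haploids. It was the single member among 10 tested genes of phosphate acquisition, with 1 called lower and 0 higher in each ploidy. The secreted acid phosphatase *pho1+* had a ratio of 1.07 in diploids and 1.13 in haploids, the phosphate transporter *pho84+* had 0.745 in diploids and 0.861 in haploids, and *tgp1+*, which takes up glycerophosphodiesters, had 1.15 in diploids and 0.894 in haploids.

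*zrt1+* (SPBC16D10.06, chromosome II 3607199 to 3609330), the zinc importer of the plasma membrane, had 86.9, 93.8 and 83 CPM in diploid MMS, against 176, 177 and 156 CPM in diploid NT. In haploids it had 56.4, 56.9 and 58.1 CPM under MMS, against 78.9, 89.9 and 93.3 CPM in NT. Diploid MMS libraries thus lay at the level of haploid NT. *ctr5+*, a subunit of the copper importer, had ratios of 0.731 in diploids and 0.693 in haploids. On the metal homeostasis list (24 tested) the 2 were the members, 1 gene was called lower and 1 higher in diploids, and 0 lower and 1 higher in haploids. *ctr4+*, the partner of *ctr5+*, had 0.622 in diploids and 0.712 in haploids but its haploid libraries overlapped. *zrt1+* and *sir2+*, a histone deacetylase and also a member, converge and share 114 bases.

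*ptr2+*, a peptide transporter, had 25.4, 23.1 and 19.4 CPM in diploid MMS, against 29.9, 27.2 and 31.4 CPM in diploid NT, and 7.62, 9.42 and 12.2 CPM in haploid MMS, against 17.6, 20.6 and 18.5 CPM in haploid NT. It was the member among 15 tested amino acid and peptide transporters, of which 0 were called lower in diploids and 2 in haploids. *tna1+*, for nicotinic acid, was the least abundant member per length, at 2.62 CPM per kilobase, with ratios of 0.647 in diploids and 0.562 in haploids. Together with *ctr5+* and *zrt1+* it made up the members on a list of 29 tested plasma membrane transporters for nucleobases, vitamins and other solutes (1 called lower and 0 higher in diploids, 0 lower and 1 higher in haploids). *cta3+*, a calcium ATPase, had ratios of 0.744 in diploids and 0.67 in haploids, and was the member among 30 tested genes of the general stress response (0 called lower in either ploidy, 3 called higher in diploids and 4 in haploids). The others were the dipeptide transporters *dal51+* and *dal52+*, the amino acid permease SPBC359.01, the gamma-aminobutyric acid and polyamine transporter SPCC74.04, the calcium transporter SPAC24H6.13, SPAC977.17 of the MIP family, and *mam1+*, which exports the M-factor pheromone.

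*mam1+* had 48.5, 52.3 and 56.2 CPM in diploid MMS, against 69.9, 76.4 and 70.2 CPM in diploid NT, and 52.8, 51.1 and 51.2 CPM in haploid MMS, against 72.4, 71.1 and 69.9 CPM in haploid NT. The groups were tight and the ratios, 0.725 in diploids and 0.727 in haploids, nearly equal. It was the member among 8 tested M-cell markers and among 34 tested genes of pheromone signalling and mating, with 0 called in either direction in either ploidy on both lists. *map4+*, an adhesin of mating cells counted as a P-cell marker, had ratios of 0.772 in diploids and 0.623 in haploids. It was the member among 5 tested P-cell markers (0 called lower in diploids, 1 in haploids) and among 10 tested flocculins and adhesins (0 called lower in diploids, 2 in haploids, 0 higher). Of other M-cell markers, *mam2+* had a ratio of 0.956 in diploids and 0.786 in haploids, and *mam3+* had 1.12 in diploids and 1.1 in haploids.

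The members named for meiosis were low in level, with mean CPM from 15.1 to 65.9 for the group of 8. *rec7+* (SPCC1753.03c), needed for meiotic recombination, had 31.9, 33.2 and 64.2 CPM in diploid MMS, against 65.6, 72.8 and 65.9 CPM in diploid NT, and 34.8, 25.4 and 24.2 CPM in haploid MMS, against 44.4, 61.5 and 71.6 CPM in haploid NT. Diploid MMS 3 lay at the level of the NT libraries and met the rule by a narrow margin. The same library had 7800 counts of the P-cell marker *map2+*, against 819 to 3249 in the other 11. It also stood above the others for *map1+* (1238 counts, against 333 to 801), *map3+* (386, against 114 to 222) and the M-cell marker *mfm1+* (297, against 30 to 126). For *mam2+*, *mam3+*, *mfm2+*, *sxa1+* and *sxa2+* it was not the highest library. It was the highest for *mat1-Mc* (31, against 6 to 20) and *mfm3+* (648, against 439 to 628). The same held for *mam1+* (1384, against 930 to 1318) and *map4+* (1438, against 979 to 1425). These counts are not scaled for library totals, which ran from 16288362 to 26493886. Without this library the rule kept 228 genes, 65 of them members, as given above. Whether its marker counts bear on that was not tested. The meiotic cyclin *rem1+* had ratios of 0.665 in diploids and 0.531 in haploids. *meu31+*, expressed in meiosis, had 0.617 in both. The splicing-factor relative *mug161+*, of which 58.1% of the exon bases are shared with *oct1+*, had 0.647 in diploids and 0.567 in haploids. *mug24+*, *mug115+* and the kinase gene *spo4+* completed the group.

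Of the 12 members in metabolism, 3 break down carbohydrates. *dak2+* (SPAC977.16c, chromosome I 64559 to 66980), dihydroxyacetone kinase, had 67.3, 58.2 and 83.4 CPM in diploid MMS, against 133, 102 and 124 CPM in diploid NT, and 52.9, 36.5 and 39.5 CPM in haploid MMS, against 57.3, 69.2 and 71.6 CPM in haploid NT. It overlaps SPAC977.17 on the opposite strand, also a member, by 762 bases, which is 31.5% of the exon bases of *dak2+* and 21.1% of those of SPAC977.17. *aah1+*, a GPI-anchored glycosyl hydrolase, had ratios of 0.683 in diploids and 0.673 in haploids, and the maltase gene *agl1+* had 0.692 in diploids and 0.606 in haploids. Of 14 tested genes of carbohydrate breakdown, 1 was called lower in each ploidy, *dak2+* in diploids and *agl1+* in haploids, and 0 higher. *dak2+*, SPAC977.17 and *aah1+* were the 3 members within 100 kb of a chromosome end (4% of members, 2.7% of genes).

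*gln1+*, glutamine synthetase, had a mean of 178 CPM per kilobase and ratios of 0.73 in diploids and 0.65 in haploids. It was the member among 38 tested genes of amino acid synthesis (0 called lower, and 1 higher in haploids alone) and among 20 tested nitrogen-responsive genes (0 called lower in diploids, 1 other than *gln1+* in haploids). *met26+*, methionine synthase, at 1092 CPM per kilobase, averaged 2884 ± 455 CPM in diploid MMS and 3847 ± 328 CPM in diploid NT, and 2326 ± 320 CPM in haploid MMS and 3135 ± 559 CPM in haploid NT (SD, n = 3 each). *rib7+*, for riboflavin synthesis, had 0.673 in diploids and 0.511 in haploids, and on its list of 16 tested genes of vitamin synthesis 0 were called lower and 1 higher in diploids, and 1 lower and 2 higher in haploids. *gst1+*, a glutathione transferase, had 0.711 in diploids and 0.593 in haploids, while of 25 tested antioxidant genes 0 were called lower and 1 higher in diploids, and 1 lower and 7 higher in haploids. The remaining members in metabolism, *dea2+*, SPBC1683.02, *oaa1+*, SPAC25B8.12c and SPAC1F7.10, had ratios of at least 0.68 in both ploidies.

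Members that act on DNA were few. *uve1+*, the endonuclease that starts repair of ultraviolet damage, had 56.2, 61.8 and 74.3 CPM in diploid MMS, against 79.5, 86.6 and 79.9 CPM in diploid NT, and 74.8, 57.3 and 55.3 CPM in haploid MMS, against 106, 80.1 and 83.7 CPM in haploid NT. It was the member among 52 tested genes of DNA repair, of which 0 were called lower and 2 higher in diploids, and 1 lower and 3 higher in haploids, none of them *uve1+*. Named after their values were seen, *atl1+*, whose product binds alkylated guanine, had ratios of 0.695 in diploids and 0.644 in haploids at a mean of 9.16 CPM per kilobase, and the ligase gene *adl1+*, of which 79.7% of the exon bases are shared with neighbours, had 0.69 in diploids and 0.657 in haploids. The centromere gene *cnp3+* and *sir2+* were the other 2. Of 34 lists, 18 held a member. No gene on the lists of replication, histones, MBF targets, ribosomal proteins, ribosome biogenesis, respiration or chaperones was a member. The same held for entry into meiosis, hexose transport, glycolysis, checkpoints, the spindle and vesicle traffic. It held also for synthesis of purines, ergosterol and fatty acids. Members were 75 of 4450 genes, so nothing is read from a list that held 0.

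In the 9 members for transcription and RNA the ratio ran from 0.656 to 0.796 in diploids and from 0.559 to 0.765 in haploids. *mbx1+*, a MADS-box factor that acts on genes of the end of mitosis, had 162, 143 and 174 CPM in diploid MMS, against 206, 205 and 206 CPM in diploid NT, and 173, 147 and 152 CPM in haploid MMS, against 321, 258 and 264 CPM in haploid NT. MMS libraries were at like levels in both ploidies, and haploid NT stood above diploid NT. Of its exon bases 46.9% are shared with *ppr3+* on the opposite strand. *msa1+* had ratios of 0.656 in diploids and 0.638 in haploids. The 6 members for mitochondrial gene expression, among them the PPR proteins *ppr2+* and *ppr5+*, ran from 0.713 to 0.79 in diploids and from 0.589 to 0.787 in haploids. The 5 in signalling and the cell cycle, *gnr1+*, *puc1+*, *txc1+*, *rga9+* and *ssp1+*, lay nearer the limit, from 0.744 to 0.798 in diploids and from 0.654 to 0.74 in haploids.

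SPAC27E2.11c, described only as specific to *Schizosaccharomyces*, was the most abundant member per length, at 3208 CPM per kilobase over an exon of 652 bases (chromosome I 4009573 to 4010224). It had 1732, 1690 and 1390 CPM in diploid MMS, against 2624, 2666 and 2378 CPM in diploid NT, and 1737, 1547 and 1572 CPM in haploid MMS, against 2724, 2594 and 2443 CPM in haploid NT. The levels of each treatment were alike in both ploidies, with ratios of 0.628 in diploids and 0.626 in haploids. SPAC56F8.15 had ratios of 0.502 in diploids and 0.349 in haploids at a low level, from 5.12 to 7.39 CPM in diploid MMS against 11.3 to 13.5 CPM in diploid NT, and it shares 36.9% of its exon bases with *esc1+* and the member *mug115+*. SPAC110.06 and SPAC9E9.02, also of no annotated role, had ratios of 0.569 and 0.676 in diploids and of 0.534 and 0.5 in haploids, in that order. SPCC1259.08, at 123 CPM per kilobase, had 0.698 in diploids and 0.597 in haploids.

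At the edge of the rule, the members nearest the limit were *ssp1+* (0.798 in diploids, 0.715 in haploids), *tri1+* (0.796 in diploids, 0.612 in haploids) and SPCC74.04 (0.794 in diploids, 0.593 in haploids). The genes just outside it, with no overlap between MMS and NT libraries, were *tcb2+*, *dmc1+* and *klp5+*, whose ratios in diploids were 0.8004, 0.8022 and 0.8038. A further 66 genes met the ratio in both ploidies and were left out because libraries overlapped.

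The difference of the MMS log2FC, diploid minus haploid, had a median over members of 0.06, and over all genes of 0.01. Of 4584 genes tested for this difference, 0.0% were called at an adjusted p under 0.05, and so 0 of 75 members, by edgeR's quasi-likelihood test. At an unadjusted p under 0.05 there were 6 members (8%) and 156 genes (3.4%), DESeq2 called 1 gene and 0 members, and edgeR with the culture as a block called 0 genes. The differences with the highest values were 0.66 ± 0.269 for *pho842+*, 0.5 ± 0.244 for *ptr2+*, 0.45 ± 0.353 for SPAC56F8.15, 0.39 ± 0.155 for *mbx1+* and 0.35 ± 0.152 for SPAC1F8.08 (log2FC ± SE, 12 libraries). The lowest were -0.42 ± 0.138 for *zrt1+*, -0.42 ± 0.189 for *eng1+*, -0.25 ± 0.233 for *dak2+*, -0.24 ± 0.177 for *cts2+* and -0.22 ± 0.205 for SPAC977.17. Since the rule bounds the response in both ploidies, these values describe the members and do not measure how alike the ploidies are.

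The level of the members in diploids against haploids was not used by the rule. By asking for no overlap between MMS and NT libraries, the rule did favour genes with a small spread between libraries. That spread enters the test below, so members and all genes are not on an equal footing in it. NT and MMS counts of each culture were summed, and 3 diploid cultures were compared with 3 haploid cultures. Of the 75 members, 6 were called higher in diploids and 0 lower, by edgeR's quasi-likelihood test with an adjusted p under 0.05, while 0.327% of the genes tested were called higher and 0.349% lower. The 6 made up 8% of the members and 40% of the 15 genes called higher. Each of the 6 calls was lost without diploid culture 1, 2 or 3 or without haploid culture 2 or 3, and 14 members were called higher and 3 lower without haploid culture 1. The share of all genes called with a culture left out is not given here. At an unadjusted p under 0.05, 23 members were higher and 5 lower, beside 350 of the 4584 genes higher and 372 lower.

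The 6 were *zrt1+*, *ptr2+*, *dak2+*, *aah1+*, SPAC25B8.12c and *eng1+*. *ptr2+* had the highest log2FC of diploid over haploid cultures, 0.94 ± 0.121, then *zrt1+* with 0.86 ± 0.1, SPAC25B8.12c, annotated as a nucleotide-sugar phosphatase, with 0.85 ± 0.102, *dak2+* with 0.83 ± 0.105 and *aah1+* with 0.59 ± 0.0725 (log2FC ± SE, edgeR adjusted p = 0.0354 for each). For *eng1+* it was 0.73 ± 0.104 (edgeR adjusted p = 0.0394). SPAC25B8.12c had 68.8, 68.7 and 55.2 CPM in diploid MMS and 80.8, 84.6 and 80 CPM in diploid NT, against 37.1, 33.1 and 39.1 CPM in haploid MMS and 45, 48 and 48.2 CPM in haploid NT. *aah1+* had 136, 141 and 143 CPM in diploid MMS and a mean of 204 ± 3.87 CPM in diploid NT (SD, n = 3), against 96.3, 85.1 and 102 CPM in haploid MMS and 126, 155 and 141 CPM in haploid NT. For SPAC25B8.12c even the diploid MMS libraries lay above the haploid NT libraries, whereas those of *aah1+* lay within the range of haploid NT. The same test called 9 members higher and 1 lower in NT libraries alone, and 0 in either direction in MMS libraries alone, fitted as 3 against 3. Shares of all genes called are not given for these fits, so the counts do not set members against other genes. The MMS libraries alone gave log2FC values of 1.23 for *ptr2+*, 0.83 for SPAC25B8.12c, 0.69 for *dak2+*, 0.63 for *zrt1+*, 0.57 for *aah1+* and 0.47 for *eng1+* (edgeR adjusted p from 0.134 to 0.34). In the fit of all 12 libraries, which shares an estimate of the spread over 4 groups, the contrast between MMS libraries had an edgeR adjusted p of 0.0128 for *ptr2+* and SPAC25B8.12c, 0.0131 for *zrt1+*, 0.0183 for *aah1+*, 0.0923 for *dak2+* and 0.147 for *eng1+*.

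**Figure D4:**
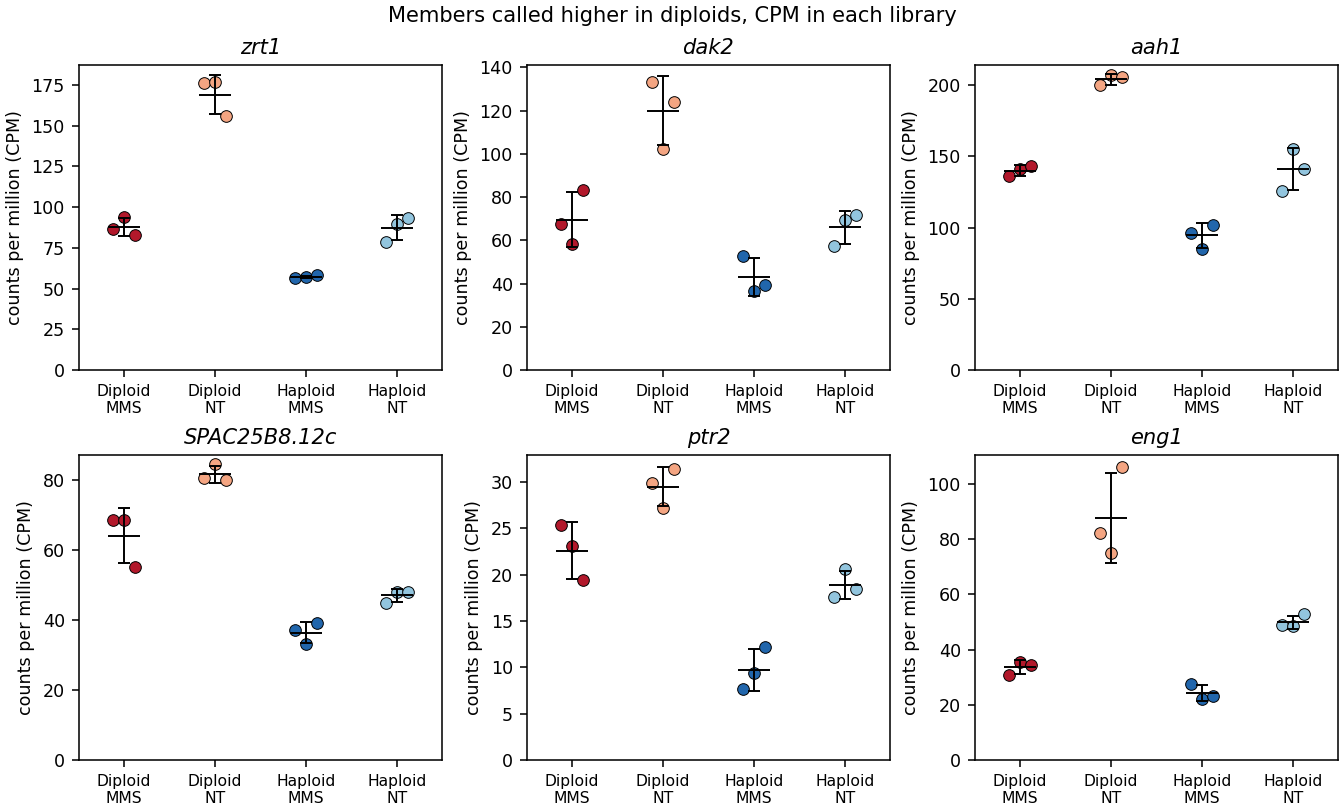
CPM of the 6 members called higher in diploids, in each library. Circles are libraries, bars the mean and SD (n = 3), from left to right diploid MMS, diploid NT, haploid MMS and haploid NT, with the CPM axis from 0. In each panel the diploid circles lie above the haploid circles of the same treatment, as for *ptr2+*, with 19.4 to 25.4 CPM in diploid MMS and 7.62 to 12.2 CPM in haploid MMS.

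Over all 75 members the log2FC of diploid over haploid cultures had a median of 0.18 and was above 0 in 56 (74.7%). Over the 4450 genes the median was 0.02 and 52.8% were above 0. In metabolism all 12 members were above 0, with a median of 0.38, and 11 of the 13 transporters were, with a median of 0.19. In transcription and RNA 3 of 9 were, with a median of -0.2. Scaled by spike-ins, 98.5% of all genes tested were called higher in diploids, with a median of 1.22, and 74 members were, with a median of 1.39.

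In gene structure, 53 members (70.7%) had a single exon in the table, as did 51.3% of the 4450 genes. The median length of exons was 2159 bases for members and 1872 bases for all genes, and the median level was 25.4 CPM per kilobase for members and 60.7 for all genes. Chromosome I held 48% of the members and 45.4% of the genes, chromosome II 36% and 36.4%, and chromosome III 16% and 18.2%, in the same order. Besides *dak2+* with SPAC977.17, *adg2+* with *ted1+* and *zrt1+* with *sir2+*, the members *oaa1+* and *rib7+* are neighbours and share 67 bases on the same strand. Exons of 35 members overlap another gene of the table, over more than 20% of the exon bases in 14. In RefSeq, 72 members (96%) have a transcript on the opposite strand over an exon, as do 92% of the 4450 genes. The sources used here do not name the strand setting of the counting, so reads of a gene and of an overlapping transcript may not have been told apart.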

How the data were processed

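Per the methods, the authors mapped paired-end reads to the PomBase reference using STAR 2.7.0e and summed them per gene by featureCounts. The deposited values are raw counts per gene for 4857 genes and 92 ERCC transcripts in 12 libraries, without normalization, and 0 columns of other samples were found. The sources used here do not name the version of featureCounts, the build, the annotation release or the strand setting. Of 5036 introns in the table, 98.4% are annotated at the same bases in ASM294v3 (RefSeq), whose symbols matched 4855 genes and from which the sequences searched for motifs were read.

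CPM, ratios and members came from pandas 2.3.3 and numpy 2.4.6 in Python 3.11.15. The fits across genes used edgeR 4.0.16 (R 4.3.3) with TMM, on 4584 genes. SPAC977.09c and SPBC1348.10c, which share an open reading frame, were left out, as was any gene under 5 reads in at least 2 libraries. MMS contrasts and their difference came from a mean per group over 12 libraries, and ploidy from culture sums. The Benjamini-Hochberg adjustment ran over the 4584 genes. DESeq2 1.42.0 and limma 3.58.1 were alternatives, beside other scalings, filters and libraries left out. The edgeR fits of 12 libraries, with and without the block, and of culture sums were run on simulated counts. These had a common spread and independent libraries, unlike the divided cultures. The methods state that NT and MMS samples came from divided cultures. Residuals of same-numbered libraries correlated at 0.56, 0.441 and 0.577 in diploids and 0.711, 0.647 and 0.499 in haploids. Unlike-numbered libraries correlated at -0.555 to 0.217 in diploids and -0.689 to 0.571 in haploids. Haploid MMS 3 correlated more with NT 2 (0.571) than with NT 3 (0.499), so the residuals do not settle that pair. Same numbers were taken as a culture for the block and the culture sums, which the labels do not state. Where nothing else is said, p-values of ploidy measure the spread between 3 cultures of a single strain per ploidy. Those of MMS contrasts and of their difference measure the spread between the 3 libraries of a group, estimated over the 4 groups together. The division of cultures enters them only in the fit with the block.

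Genes named were the 20 members with the smallest value of the larger ratio, up to 4 members per list, members called in the ploidy test, the 5 highest per kilobase, 3 on each side of the limit, the 5 largest and 5 smallest response differences, and label checks. Members of a role were also named without this rule, as were the non-members of a list, such as *sep1+* and *pho1+*, given beside its members. Members, lists and motifs were chosen with earlier results of these data known, and the promoter window and roles after the members were known. A search for 1 further motif is not reported here.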

Additional observations from a re-analysis of the deposited data

How the results depend on the processing

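The rule gave 75 genes. It gave 17 at a ratio limit of 0.67, 120 when MMS had only to lie below NT in each same-numbered pair (the replicate block reading), and 141 with overlap allowed. Other scalings, CPM minimums and a limit of 0.75 gave between 53 and 90, of which 52 were shared with the 75 under spike-in scaling, and leaving out single libraries gave 77 to 228. Members called lower by MMS in diploids, 12 as reported, were 19 with the culture as a replicate block and 1 with spike-in scaling, and 2 to 20 with single libraries left out. In haploids, 29 as reported, spike-in scaling gave 67 and left-out libraries 9 to 34, and the block gave 35. The shares of all genes called with libraries left out are not given here, so those counts do not set members against other genes. Spike-in scaling put the median log2FC of all genes tested at -0.61 in haploids. The response difference was called for 0 members under each alternative run.

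Members called higher in diploids, 6 as reported, were 74 with spike-in scaling, 17 with DESeq2, 18 from 12 libraries without a replicate block, 11 with limma voom and the culture as a random replicate block, 0 from the MMS libraries alone, and 0 to 14 with cultures left out. Members called lower in diploids, 0 as reported, were 3 from 12 libraries without a replicate block, 1 each with DESeq2, limma voom with the replicate block and the NT libraries alone, and 0 to 3 with cultures left out. With spike-in scaling 98.5% of all genes tested were called higher. For the other ploidy alternatives such shares are not given, so the counts do not set members against other genes. With 3 libraries a group and a spread that single libraries move this far, differences of the size of the limit are at the edge of what these counts resolve. No named member's MMS direction turned under the alternatives run. With libraries left out this was fixed by the rule, which puts every MMS library below every NT library. The ploidy direction of the 6 called did not turn either.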
